A study of Mus musculus with 15 samples.

Results

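The genes described here are 9 genes of MHC class II antigen presentation, *H2-Aa*, *H2-Ab1*, *H2-Eb1*, *Cd74*, *Ciita*, *H2-DMa*, *H2-DMb1*, *Cd80* and *Cd86*. They were taken by symbol, and all 9 were found among the 24690 entries counted in each of 15 RNA-seq libraries. RNA-seq was done on group 2 innate lymphoid cells (ILC2s) of the lamina propria (LP), sorted as CD45+Lin-CD127+Sca-1+CD25+KLRG1+ cells, and on ILC2 progenitors (ILC2p) of the bone marrow (BM), sorted as Lin-CD127+CD25+ cells carrying the integrin α4β7. The sequenced cells of both genotypes were C57BL/6 cells with floxed *Tgfbr2* and the ER-Cre transgene (Tgfbr2f/f ER-Cre+), in which tamoxifen activates the recombinase in every cell type. The Tgfbr2-/- groups received tamoxifen and the WT groups received sunflower oil, each for 5 days. LP ILC2s came from the treated mice themselves, which the paper describes as killed the day after the last dose. BM ILC2p came from mixed chimeras (Tgfbr2-/-/45.1 or Control/45.1), in which irradiated CD45.1+ hosts held Tgfbr2f/f ER-Cre+ BM cells beside normal CD45.1+ BM cells, and the sort took the CD45.2+ cells. In the paper these names stand for chimeras made with BM of tamoxifen- or oil-treated donors, analysed weeks after transfer. Each cell type was sequenced in 2 experiments. Each experiment gave 2 libraries per genotype, except that experiment 2 of LP ILC2s gave 1 for Tgfbr2-/-, so that there were 4 WT and 3 Tgfbr2-/- libraries of LP ILC2s and 4 of each genotype of BM ILC2p. Their total counts ran from 10957021 to 35961215. The labels do not say whether libraries of a group came from separate mice, so p-values measure the spread between these libraries.

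Class II molecules are heterodimers of an α and a β chain that carry peptides from endosomes to the cell surface, where CD4+ T cells read them. CD74, the invariant chain, escorts the new dimer and blocks its groove, and the DM heterodimer exchanges the last CD74 fragment for a peptide. CIITA is the coactivator that drives transcription of these genes, and CD80 and CD86 are the costimulatory ligands of CD28. Professional presenting cells such as B cells, dendritic cells and macrophages carry much class II, and some ILC2s are known to carry class II and to present antigen to T cells. C57BL/6 mice have a deletion at the start of the *H2-Ea* gene and make the I-A dimer (*H2-Aa* and *H2-Ab1*) without an I-E dimer, so the product of *H2-Eb1* has no usual partner.

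The promoters of the class II chains and of DM share short boxes, and 3 of them are printed here because the levels of *H2-Aa* and *H2-Eb1* varied together across LP libraries (r = 0.92) while those of *H2-DMb1* followed *H2-Aa* less closely (r = 0.49). *H2-DMb1* had r = 0.26 with *H2-Eb1* and 0.72 with *H2-Ab1*, and *H2-DMa* had r = 0.11 with *H2-Aa*. Whether promoter letters and levels are related was not tested. Promoter sequence was taken from RefSeq (build GRCm38.p6), whose table held 5 of the 9 members, namely *H2-Aa*, *H2-Eb1*, *H2-DMa*, *H2-DMb1* and *Cd80*. Each line shows the 150 bases before the start of the gene, on the strand of the gene, and capitals mark the motifs found. They lie at chr17:34287824-34287973 (minus strand), chr17:34305717-34305866 (plus strand) and chr17:34153041-34153190 (plus strand).
H2-Aa: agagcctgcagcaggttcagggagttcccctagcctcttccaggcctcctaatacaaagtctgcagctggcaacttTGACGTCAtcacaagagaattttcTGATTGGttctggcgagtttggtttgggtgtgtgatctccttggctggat
H2-Eb1: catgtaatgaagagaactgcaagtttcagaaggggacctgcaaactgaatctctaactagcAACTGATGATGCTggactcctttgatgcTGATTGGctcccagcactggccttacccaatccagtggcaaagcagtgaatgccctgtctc
H2-DMb1: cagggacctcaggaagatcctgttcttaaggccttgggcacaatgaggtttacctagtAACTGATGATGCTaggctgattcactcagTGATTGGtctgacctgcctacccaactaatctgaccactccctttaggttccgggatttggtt

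The Y box core TGATTGG, the class II form of the box that NF-Y binds, began 50 bases before the start of *H2-Aa*, 61 before that of *H2-Eb1* and 63 before that of *H2-DMb1*. Searched on both strands, it was in 5.71% of 32851 RefSeq promoter windows of the same length, and in no window of *H2-DMa* or *Cd80*. The motif TGACGTCA, a cyclic AMP response element that reads the same on both strands, began 74 bases before the start of *H2-Aa* and was in 1.36% of windows. The longest run that *H2-Eb1* and *H2-DMb1* share, AACTGATGATGCT, began 89 and 92 bases before their starts, and no window other than these 2 held it (0.00609%). None of the motifs overlapped another. These matches describe letters in a window, and no binding was measured.

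The libraries were first compared with their labels. *Tgfbr2* was at 172, 262, 147 and 206 CPM (counts scaled to library size by TMM) in the WT LP ILC2s and at 206, 184 and 96.1 CPM in the Tgfbr2-/- LP ILC2s. The WT BM ILC2p had 0.714, 233, 107 and 188 CPM of it, and the Tgfbr2-/- BM ILC2p had 87.2, 130, 30.8 and 218 CPM. The groups overlapped in both tissues, with log2 fold changes of −0.46 ± 0.24 (SE) in LP ILC2s and −0.21 ± 1.21 in BM ILC2p (edgeR quasi-likelihood test, adjusted p = 0.898 and 0.989). The counts cover the whole transcript, including exons that the recombinase leaves in place, so they do not check the deletion, and genotypes below are those of the labels.

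Markers of ILC2s and of other cells were examined next. The 10 ILC2 markers summed to between 5556 and 8894 CPM in the 7 LP libraries and between 5586 and 8269 CPM in the 4 WT BM libraries, and to 2470, 2445, 2395 and 3549 CPM in the 4 BM libraries labelled Tgfbr2-/-. *Gata3*, the transcription factor of ILC2s, was the most abundant of them in each library. In the 4 BM Tgfbr2-/- libraries the macrophage and monocyte markers summed to 12688, 12220, 11387 and 12945 CPM, of which lysozyme *Lyz2* alone gave 12124, 11801, 10860 and 12540 CPM. The same list summed to between 42.7 and 86.1 CPM in the 4 WT BM libraries. The basophil and mast cell list summed to between 1226 and 1716 CPM in these Tgfbr2-/- libraries, where the protease *Prss34* led it, and to between 216 and 310 CPM in the WT ones. In the BM Tgfbr2-/- libraries, 4, 7, 7 and 4 of the 10 macrophage and monocyte genes were at 1 CPM or more. The macrophage gene *C1qa* was at 0 CPM in 3 of these libraries and at 0.212 CPM in the other. *C1qb* was at most 0.0773 CPM in them, against up to 7.51 CPM in the WT BM libraries. The macrophage and monocyte list was also high in 1 LP library, WT replicate 2 of experiment 2, at 438 CPM with all 10 genes of the list at 1 CPM or more, against between 0.889 and 47.0 CPM in the other 6. Its most abundant was *C1qa*, at 94.0 CPM. Epithelial markers summed to 947 CPM in the Tgfbr2-/- LP library of experiment 2 and to 369 CPM in WT replicate 2 of that experiment, led by keratin *Krt8* in both, and to at most 103 CPM in the other 13 libraries. Defining genes of other presenting cells were at 0 counts in all 15 libraries, namely *Pax5* of B cells and *Flt3* and *Clec9a* of dendritic cells, which by counting error alone allows at most 0.217 CPM (3 counts) in an LP library. Single BM libraries also lost genes that the others expressed well, so no limit is given for BM. The summed B cell list ranged from 48.7 to 88.2 CPM in LP and from 0.961 to 243 CPM in BM, and *Cd79b* was its most abundant gene in all but the 2 Tgfbr2-/- BM libraries of experiment 1. The summed dendritic cell list ranged from 22.9 to 78.7 CPM in LP and from 1.19 to 259 CPM in BM. The ILC3 list reached 556 CPM and the T cell list 151 CPM, both in LP WT replicate 1 of experiment 1. The part of these cells in the class II values below was not tested, and in bulk RNA fewer cells of a type and less RNA per cell cannot be told apart.

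The class II chains and *Cd74* were found in every library. Compared per transcript length, as deposited RPKM (reads per kilobase and depth), *Cd74* was the most abundant of the 9 members in 15 of 15 libraries, with a median of 424 RPKM in LP ILC2s (range 137 to 759, n = 7) and 651 RPKM in BM ILC2p (range 470 to 1163, n = 8). *H2-Ab1* was second in 12 libraries, with medians of 83.9 RPKM in LP and 253 RPKM in BM. *H2-Aa* had medians of 56.8 and 192 RPKM, *H2-DMa* of 50.9 and 93.2 RPKM, *H2-Eb1* of 46.3 and 102 RPKM, and *H2-DMb1* of 11.8 and 40.1 RPKM. *Ciita* had a median of 1.06 RPKM in LP and 0.0173 RPKM in BM, and *Cd86* and *Cd80* were at the bottom, with medians of 0.0143 RPKM and 0 RPKM in LP and 0 RPKM for both in BM. In LP the medians of *H2-Aa*, *H2-DMa* and *H2-Eb1* lay closer together than the spread between libraries (SD 85.3, 12.5 and 42.3 RPKM). These genes were measured in the same libraries, and their order within libraries was not tested. The medians of 6 members were higher in BM than in LP, both as CPM and as RPKM.

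**Figure D1:**
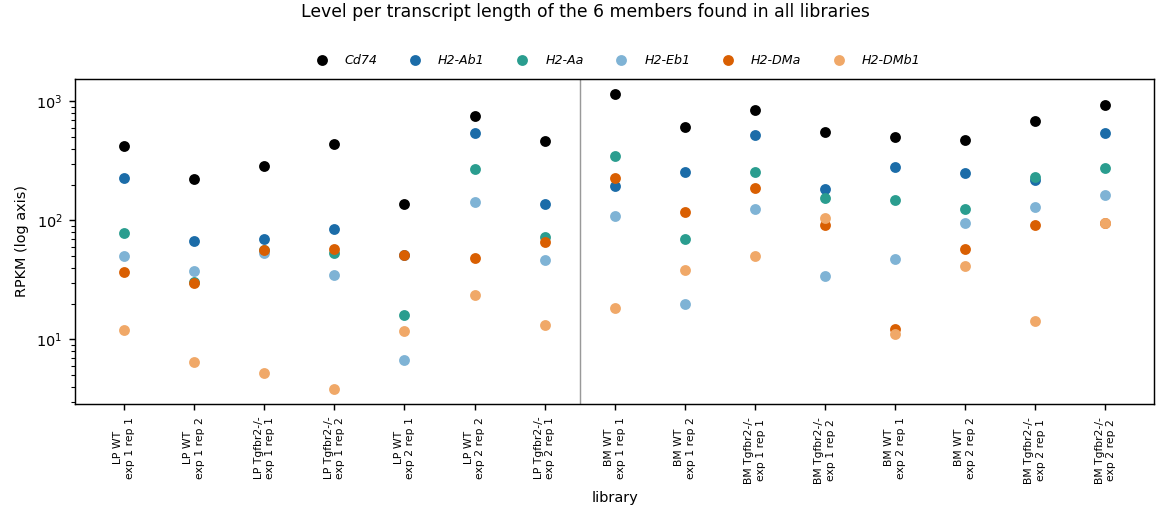
RPKM (log axis) of the 6 members found in all 15 libraries, with LP ILC2 libraries left of the line and BM ILC2p libraries right of it. *Cd74* is the highest point in every library, and *H2-Eb1* runs from 6.74 to 142 RPKM among the WT LP libraries of experiment 2 alone.

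The balance between the chains was not constant. The RPKM of *H2-Ab1* was between 1.23 and 3.15 times that of *H2-Aa* in the LP libraries and between 0.561 and 3.66 times in the BM libraries, so the order of the 2 chains of I-A turned in some BM libraries. *Cd74* was between 2.82 and 8.49 times *H2-Aa* in LP and at most 8.69 times in BM (median 3.38). *H2-Aa* and *H2-Ab1* lie end to end on opposite strands of chromosome 17, at 34406276 to 34424772 and 34400154 to 34406363 of NCBIM37 (mm9), and their GENCODE genes overlap by 88 bases. Whether they overlap in the RefSeq annotation used for counting was not analysed here, and the strand of the libraries is not given in the sources used here. *H2-Eb1* lies close by, at 34442828 to 34453144. The pseudogene entry *H2-Ea-ps*, named after its values were seen, had 0 counts in all 15 libraries.

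In LP ILC2s, the WT libraries held 83.8, 31.1, 14.7 and 245 CPM of *H2-Aa* (mean 93.6 ± 105, SD, n = 4) and the Tgfbr2-/- libraries 53.8, 54.7 and 65.5 CPM (58.0 ± 6.49, n = 3). The 3 Tgfbr2-/- values lay inside the range of the WT values. *H2-Ab1* was at 271, 76.1, 51.6 and 547 CPM in WT and at 73.9, 96.0 and 140 CPM in Tgfbr2-/- libraries. *H2-Eb1* was at 83.9, 59.5, 9.57 and 202 CPM in WT and at 79.0, 55.8 and 65.9 CPM in Tgfbr2-/- libraries. For these genes too, the Tgfbr2-/- values fell between the WT extremes. Both extremes were WT libraries of experiment 2, with replicate 1 the lowest for each chain and replicate 2 the highest. Replicate 2 is the LP library with the high macrophage markers, and its 3 chains summed to 994 CPM, against 75.8 CPM in replicate 1. Epithelial markers were high in replicate 2 too, at 369 CPM, and higher in the Tgfbr2-/- library of that experiment, at 947 CPM.

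**Figure D2:**
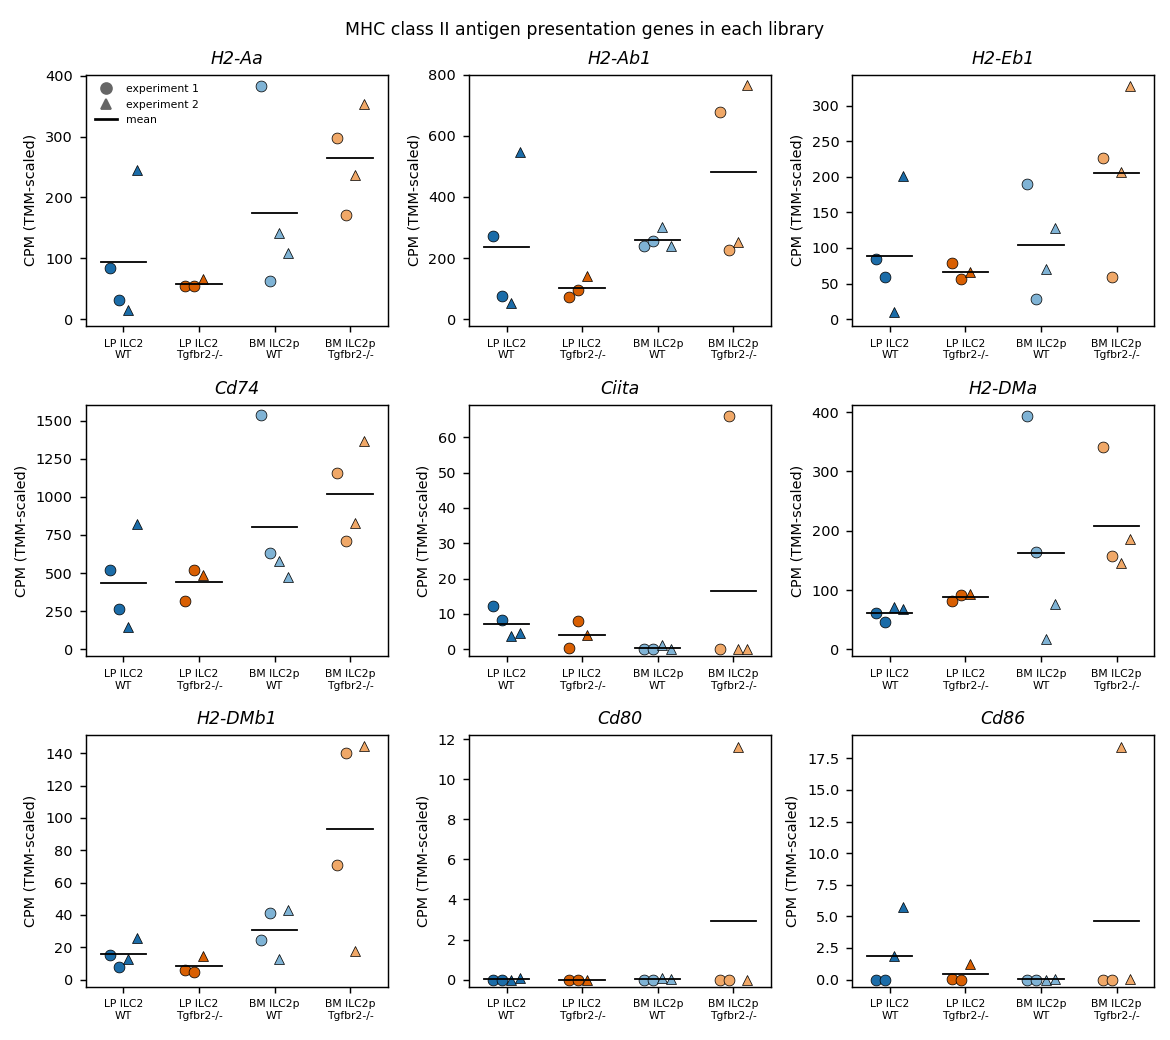
CPM of each of the 9 members in each library, by cell type and genotype, with circles for experiment 1, triangles for experiment 2 and a line at the group mean. The triangle above all other LP points for *H2-Aa*, *H2-Ab1*, *H2-Eb1* and *Cd74* is WT replicate 2 of experiment 2, and single libraries carry the BM values of *Ciita*, *Cd80* and *Cd86*.

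*Cd74*, at 60963502 to 60972300 of chromosome 18 (NCBIM37), was at 517, 266, 145 and 821 CPM in the WT LP libraries and at 316, 519 and 486 CPM in the Tgfbr2-/- LP libraries. Its lowest and highest values were again the same 2 WT libraries. *H2-DMa*, the α chain of the peptide exchange factor, was at 61.1, 46.8, 71.9 and 68.1 CPM in WT and at 82.2, 91.4 and 93.0 CPM in Tgfbr2-/- libraries, and these groups did not overlap. *H2-DMb1*, its β chain, was at 15.4, 7.93, 12.9 and 26.0 CPM in WT and at 5.89, 4.68 and 14.3 CPM in Tgfbr2-/- libraries, and the groups overlapped. *H2-DMa* was the steadiest member in LP, with its highest library 1.99 times its lowest, against 16.7 times for *H2-Aa* and 21.1 times for *H2-Eb1*.

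No member was called for the genotype in LP ILC2s at an adjusted p under 0.1 and a fold change over 1.5 (edgeR's quasi-likelihood test with the experiment as a covariate). Of the 9 members, 8 passed the filter on low counts and were tested, and 0.0% of the 11981 genes tested were called, with 4.65% at an unadjusted p under 0.05. DESeq2 called 338 genes, and no member. The log2 fold change of *H2-Ab1* was −1.10 ± 0.72 (adjusted p = 0.898), that of *H2-Aa* −0.47 ± 0.80 (0.963), of *H2-Eb1* −0.35 ± 0.79 (0.979) and of *Cd74* 0.03 ± 0.52 (0.996), all by edgeR. *H2-DMa* had a log2 fold change of 0.54 ± 0.23 (edgeR, adjusted p = 0.898). It was the only 1 of 8 members at 1 CPM or more whose groups did not overlap, as did 5.23% of all genes at that level. Median log2 fold changes were −0.41 over the 8 members and −0.01 over all genes tested. Without WT replicate 2 of experiment 2 the values of *H2-Aa* and *H2-Eb1* turned to 0.61 ± 0.62 and 0.78 ± 0.65, and that of *H2-Ab1* moved to −0.28 ± 0.68 (edgeR, adjusted p = 0.919, 0.897 and 0.984).

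In BM ILC2p, the WT libraries held 240, 257, 301 and 241 CPM of *H2-Ab1*, and those labelled Tgfbr2-/- held 678, 228, 251 and 765 CPM. The WT values were close together (260 ± 28.5, SD, n = 4) and the others were split, with replicate 1 of experiment 1 and replicate 2 of experiment 2 above all WT libraries. *H2-Aa* was at 384, 62.9, 142 and 108 CPM in WT and at 299, 172, 236 and 353 CPM in Tgfbr2-/- libraries. *H2-Eb1* was at 190, 27.7, 70.4 and 129 CPM in WT and at 226, 59.0, 207 and 328 CPM in Tgfbr2-/- libraries. The groups overlapped for all 3 chains, and for *H2-Aa* the highest library of all was WT replicate 1 of experiment 1. *Cd74* was at 1535, 629, 580 and 477 CPM in WT and at 1156, 711, 831 and 1369 CPM in Tgfbr2-/- libraries. Its 4 Tgfbr2-/- values were above 3 of the 4 WT values and below that of WT replicate 1 of experiment 1.

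*H2-DMa* was at 394, 164, 18.0 and 76.8 CPM in the WT BM libraries and at 340, 157, 146 and 187 CPM in the Tgfbr2-/- BM libraries, which overlapped. *H2-DMb1* was at 24.5, 41.4, 12.7 and 43.3 CPM in WT and at 70.6, 140, 17.7 and 144 CPM in Tgfbr2-/- libraries, with 3 of the 4 Tgfbr2-/- libraries above all WT libraries. Genes that the other BM libraries expressed at a median of 50 CPM or higher were often lost in single BM libraries, where 1.56% to 14.1% of them lay under 1 CPM. The same share was at most 0.0286% in any LP library. *Tgfbr2* itself was such a gene in WT replicate 1 of experiment 1.

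No member was called for the genotype in BM ILC2p either. All 6 members tested had positive log2 fold changes, while 3.47% of the 9242 genes tested were called, 241 higher and 80 lower in the libraries labelled Tgfbr2-/-. *H2-DMb1* had a log2 fold change of 1.57 ± 0.97 (edgeR quasi-likelihood test, adjusted p = 0.778), *H2-Eb1* 0.87 ± 0.73 (0.886), *H2-Ab1* 0.85 ± 0.45 (0.68), *H2-DMa* 0.79 ± 0.69 (0.892), *H2-Aa* 0.62 ± 0.59 (0.899) and *Cd74* 0.39 ± 0.38 (0.902). The lowest adjusted p over the 18 alternative fits of *H2-DMb1* was 0.22. With 1 library left out, values ran from 0.87 to 2.03 for *H2-DMb1*, 0.58 to 1.73 for *H2-Eb1* and 0.47 to 1.10 for *H2-Ab1*. They ran from 0.29 to 1.27 for *H2-DMa*, 0.35 to 1.45 for *H2-Aa* and 0.13 to 0.81 for *Cd74*. In experiment 1 alone those of *H2-DMa* and *Cd74* were negative. Median log2 fold changes were 0.82 over the 6 members and −0.10 over all genes tested. No member had groups that did not overlap, which 8.57% of genes at 1 CPM or more had. In the same test *Lyz2* and *Cd14* of the macrophage and monocyte list rose by 8.09 ± 0.34 and 8.64 ± 1.24 on the log2 scale (edgeR, adjusted p = 1.08e-05 and 0.00635). *Prss34*, *Mcpt8* and *Fcer1a* of the basophil and mast cell list rose by 8.33 ± 0.48, 7.71 ± 1.01 and 8.64 ± 1.34 (edgeR, adjusted p = 2.69e-05, 0.00371 and 0.0101). The ILC2 genes *Gata3* and *Il1rl1* fell by 1.41 ± 0.31 and 1.96 ± 0.22 (edgeR, adjusted p = 0.0603 and 0.00156). These were the called genes among 6 macrophage and monocyte, 5 basophil and mast cell and 9 ILC2 markers tested.

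**Figure D3:**
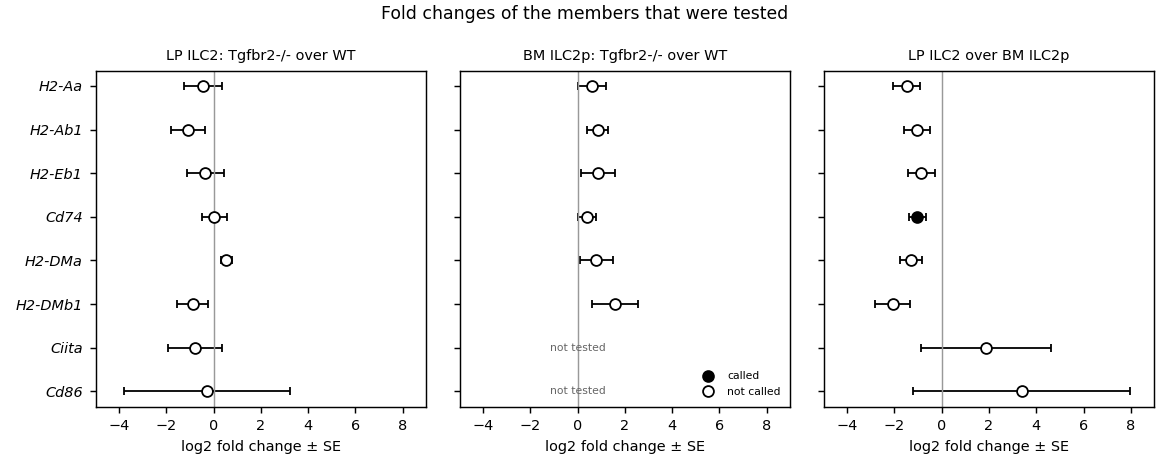
Log2 fold changes with their standard errors from edgeR, for the genotype in LP ILC2s, the genotype in BM ILC2p and LP ILC2s over BM ILC2p, with a filled point where a gene was called. *Cd74* in the right panel, at −1.03 ± 0.35, is the only filled point, and the 6 points of the middle panel all lie right of 0.

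The coactivator *Ciita*, on chromosome 16, had low levels in most libraries. The WT LP libraries had 12.3, 8.27, 3.76 and 4.59 CPM of it and the Tgfbr2-/- LP libraries 0.290, 8.13 and 4.13 CPM, which overlapped, with a log2 fold change of −0.79 ± 1.14 (edgeR, adjusted p = 0.948). In BM it had between 0 and 45 counts in 7 libraries, at most 1.27 CPM, and 636 counts (65.9 CPM) in Tgfbr2-/- replicate 2 of experiment 1. That library was not the highest for any chain or for *Cd74*, and its *H2-Ab1* was the lowest of the 8 BM libraries, at 228 CPM, while its *H2-DMb1* was the second highest in CPM (140) and the highest in RPKM (105). Of the genes well expressed in the other BM libraries, 13.8% were under 1 CPM in it. In Tgfbr2-/- replicate 2 of experiment 2 *Ciita* had 0 counts and *Cd74* 1369 CPM, but 8.35% of the genes well expressed in the other BM libraries were under 1 CPM in that library, so absence of *Ciita* cannot be read from its count. *Ciita* did not pass the filter for the genotype test in BM. Its entry pools 5 RefSeq transcripts, and which promoter they start from was not analysed here.

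The costimulatory ligands were near 0. *Cd80* had at most 2 counts in 14 libraries and 274 counts (11.6 CPM) in BM Tgfbr2-/- replicate 1 of experiment 2. *Cd86* had 434 counts (18.4 CPM) in that same library and at most 2 in the other 7 BM libraries. In LP, *Cd86* had 0, 0, 1 and 0 counts in experiment 1 and 34, 82 and 17 counts in experiment 2, with the highest in WT replicate 2. This difference between experiments missed the threshold (edgeR, adjusted p = 0.13) and passed it in DESeq2 (adjusted p = 0.0144). Among all genes, too, DESeq2 called more than edgeR between the LP experiments. *Cd80* was tested in no comparison, and *Cd86* was not tested within BM.

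LP ILC2s and BM ILC2p differ here in tissue, in mouse model (treated mice or chimeras), in sort gate, in time from treatment to sorting and in experiment. These cannot be told apart. *Cd74* was lower in LP, with a log2 difference of −1.03 ± 0.35 between the cell types (edgeR quasi-likelihood test over all 15 libraries, adjusted p = 0.0882), and was the only 1 of 8 members tested that was called. Over all 12806 genes tested 10.2% were called, 937 higher and 367 lower in LP. *H2-DMb1* had a log2 difference of −2.07 ± 0.74 (adjusted p = 0.114), *H2-Aa* −1.48 ± 0.56 (0.15), *H2-DMa* −1.31 ± 0.47 (0.115), *H2-Ab1* −1.06 ± 0.55 (0.368) and *H2-Eb1* −0.85 ± 0.59 (0.561) in edgeR. No member separated the cell types without overlap, as 3.78% of genes at 1 CPM or more did, and *Cd74* itself ran from 145 to 821 CPM in LP and from 477 to 1535 CPM in BM. *Ciita* and *Cd86* had positive log2 differences, 1.87 ± 2.77 and 3.38 ± 4.60 (edgeR, adjusted p = 0.846 and 0.832). The median over the 8 members was −1.04, against 0.07 over all genes tested.

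DESeq2 also called *H2-DMb1* (−2.16 ± 0.60), *H2-Aa* (−1.58 ± 0.58) and *H2-DMa* (−1.45 ± 0.51) lower in LP (adjusted p = 0.00488, 0.0488 and 0.0364). The share of 10.2% is that of the edgeR fit to all 15 libraries, so calls of members in other fits cannot be read against it. Among all genes DESeq2 called more than edgeR in this comparison, with the counts given in the closing section. The call of *Cd74* was a narrow one. It was lost when any 1 of 9 of the 15 libraries was left out, with values between −0.78 and −1.29 over the 15 fits, and was kept without LP WT replicate 2 or the Tgfbr2-/- library of experiment 2, without BM WT replicate 2 or Tgfbr2-/- replicate 2 of experiment 1, and without either BM WT library of experiment 2. LP WT replicate 2 of experiment 2 is the library with high macrophage markers, and its epithelial markers were high too. Without it, *H2-Aa* (−2.10 ± 0.47), *H2-Ab1* (−1.57 ± 0.44), *H2-DMb1* (−2.34 ± 0.75) and *Cd74* (−1.29 ± 0.33) were called lower in LP (edgeR, adjusted p = 0.0133, 0.042, 0.0779 and 0.0245). Over all genes, the fits without 1 library called between 1036 and 1458, against 1304 with all libraries. In the WT libraries alone *Cd74* was at −0.88 ± 0.54, *H2-Aa* at −0.89 ± 0.84 and *H2-Ab1* at −0.13 ± 0.63 (edgeR, adjusted p = 0.745, 0.891 and 0.983). In the libraries labelled Tgfbr2-/- alone they were at −1.30 ± 0.31, −2.28 ± 0.43 and −2.31 ± 0.55 (edgeR, adjusted p = 0.03, 0.0238 and 0.0305), and the BM libraries of that comparison are the ones with *Lyz2* at 10860 CPM or more. The share of all genes called in that fit is not given here, so these values are not read as particular to the members.

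The genotype effects of both cell types were then set against each other in a single fit, as the log2 fold change in LP less that in BM. No member passed, while 0.992% of 12806 genes were called. All 8 members tested had negative values, with a median of −1.59. DESeq2 called *H2-DMb1* (−2.64 ± 1.04, adjusted p = 0.0985). The share of 0.992% is that of edgeR, and DESeq2 called more genes in this test, with the counts given in the closing section. *H2-DMb1* was at −2.46 ± 1.21, *H2-Ab1* at −1.95 ± 0.93, *H2-Aa* at −1.09 ± 1.12 and *Cd74* at −0.36 ± 0.73 (edgeR, adjusted p = 0.447, 0.429, 0.844 and 0.965). The median over all genes was 0.31 in this test, so values are to be read against that shift. Between experiments, 0.977% of 11981 genes were called in LP and 0.0% of 9242 in BM, where 3.12% had an unadjusted p under 0.05, and no member was called in either. With 1 library left out, the 117 genes called in LP became between 0 and 10. Of the 8 members tested in LP, 7 had positive values (experiment 2 over 1), with a median of 0.51 against 0.00 over all genes. In BM, *H2-DMa* had a log2 difference of −1.61 ± 0.70 between experiments (edgeR, adjusted p = 0.999). DESeq2 called 397 genes between the BM experiments.

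**Figure D4:**
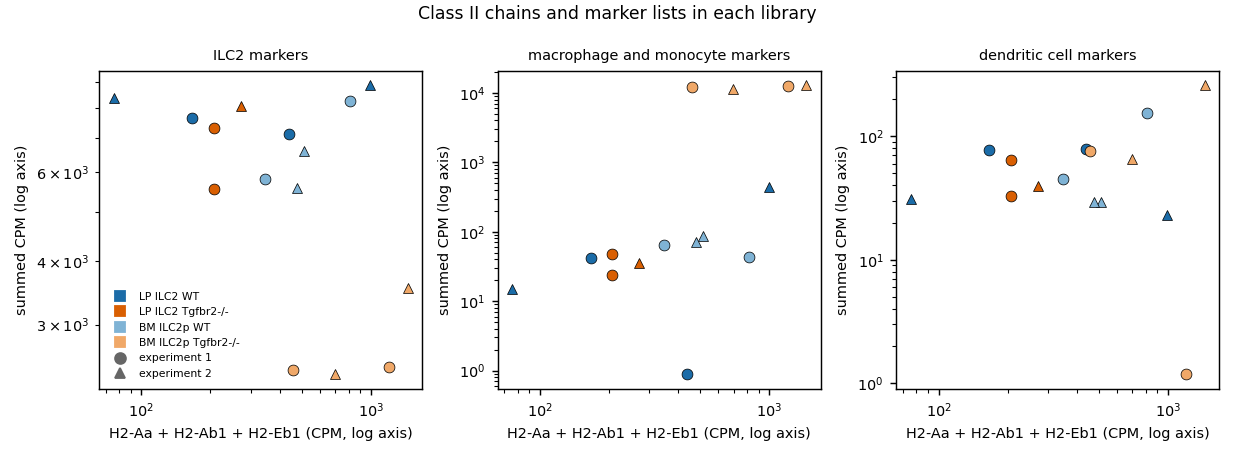
Summed CPM of 3 lists of cell type markers against the summed CPM of *H2-Aa*, *H2-Ab1* and *H2-Eb1* in each library, on log axes. The 4 BM Tgfbr2-/- libraries stand apart by the macrophage and monocyte list, between 11387 and 12945 CPM, and by ILC2 markers, between 2395 and 3549 CPM. Most of the former sum is *Lyz2* alone, between 10860 and 12540 CPM. Their class II chains, between 459 and 1446 CPM, overlap those of the WT BM libraries, between 347 and 814 CPM.

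The chains were highest in 2 of the 4 BM libraries labelled Tgfbr2-/-, at 1446 CPM in replicate 2 of experiment 2 and 1203 CPM in replicate 1 of experiment 1. The other 2 had 459 and 695 CPM with macrophage and monocyte markers at similar sums. The library with 1446 CPM had 243 CPM of B cell markers and 259 CPM of dendritic cell markers, the highest of the 15 libraries for both lists, with *Cd79b* at 165 CPM and *Cd209a* at 180 CPM. The library with 1203 CPM had 1.98 CPM of the former and 1.19 CPM of the latter. In that library 12.1% of the genes well expressed in the other BM libraries were under 1 CPM, so absence of these markers cannot be read from its sums. Whether other cells contributed to the class II values was not tested.

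Across the 7 LP libraries the log2 levels of *H2-Aa* had Pearson correlations of 0.93 with *H2-Ab1*, 0.92 with *H2-Eb1* and 0.95 with *Cd74*, but 0.08 with *Ciita* and 0.11 with *H2-DMa*. Across the 8 BM libraries these values were 0.50, 0.86, 0.87, −0.09 and 0.49. The genes most like the mean of the 3 chains in LP were *Zscan21* (r = 0.97), *Cgrrf1* (0.96), *Atp8b2* (0.96), *Sppl2a* (0.95) and *Id3* (0.94), and *Cd74* came 6th of 12733 genes (0.94). In BM they were *Trappc2l* (0.98), *Mff* (0.97), *Rfc2* (0.96), *Mrpl42* (0.96) and *Gnb2* (0.96) of 12378 genes, and *Cd74* came 129th (0.79). The points of each correlation are libraries sorted and scaled in the same way, with different depths. With 7 or 8 of them, these correlations are descriptions. The leading genes of the LP and BM lists were all different.

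Other genes of the class II pathway were taken from a list of 17. Of these, 15 were tested for the genotype in LP and 12 in BM, and no gene was called. Between the cell types 16 were tested and 3 were called, where 10.2% of all genes tested were called. *H2-DMb2*, the second DM β chain, was lower in LP by 2.45 ± 0.84 on the log2 scale (edgeR, adjusted p = 0.095). It was at between 1.02 and 8.18 CPM in LP and between 4.29 and 61.0 CPM in BM. It is a near copy of *H2-DMb1*, so reads may have been split between them. *Lgmn*, the asparagine endopeptidase legumain of endosomes, was higher in LP by 4.69 ± 1.58 (adjusted p = 0.0899), at between 58.5 and 349 CPM against between 0.283 and 86.7 CPM in BM. *Tnfsf4*, the OX40 ligand, was called higher in LP (edgeR, adjusted p = 0.0157) and had 0 counts in all 8 BM libraries, so no fold is given. Within LP the WT libraries held 0.281, 0.288, 0.0553 and 0 CPM of it and the Tgfbr2-/- ones 3.41, 16.2 and 5.65 CPM, which did not overlap, as in 5.23% of all genes at 1 CPM or more in LP. The genotype missed the threshold there (edgeR, adjusted p = 0.877). The cathepsin *Ctsd* had the highest median of the list in both cell types, at 450 RPKM in LP and 471 RPKM in BM. *H2-Oa*, the α chain of the DM inhibitor DO, was at between 98.2 and 126 CPM in WT and between 128 and 142 CPM in Tgfbr2-/- LP libraries, which did not overlap, and the BM libraries held 166, 128, 128 and 126 CPM (WT) or 13.4, 100, 43.1 and 89.0 CPM (Tgfbr2-/-). These BM groups did not overlap either, in the opposite direction, and neither did those of the thiol reductase *Ifi30* (at most 10.2 CPM in WT and at least 47.9 CPM in Tgfbr2-/- libraries) and the cathepsins *Ctss* and *Ctsb* (both higher in the latter). Groups without overlap were found for 8.57% of all genes at 1 CPM or more in BM. None of these 4 genes was called in BM (edgeR, adjusted p = 0.783, 0.12, 0.557 and 0.143), and the Tgfbr2-/- libraries are those with high *Lyz2*. *H2-Ob*, its β chain, reached 23.0 CPM in LP and 8.37 CPM in BM.

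Of 17 genes that regulate class II transcription, all were tested in LP and 16 in BM. None was called for the genotype in LP. In BM 2 of the 16 were called, where 3.47% of all genes tested were called. *Spi1*, the myeloid and B cell factor PU.1, and *Ifngr1*, the receptor of interferon-γ, rose by 7.69 ± 0.57 and 1.49 ± 0.28 (edgeR, adjusted p = 0.000124 and 0.0253). *Spi1* was at 3.84, 2.73, 4.52 and 1.33 CPM in the WT BM libraries and at 469, 711, 638 and 813 CPM in the Tgfbr2-/- BM libraries, which are those with high *Lyz2*. *Irf1*, an interferon regulatory factor, was lower in experiment 2 than in experiment 1 of LP by 1.15 ± 0.18 (edgeR, adjusted p = 0.0781), where 0.977% of all genes tested were called. With 1 library left out, between 0 and 10 genes were called in that comparison, against 117 with all LP libraries. *Rfx5*, a subunit of the RFX complex that binds class II promoters, was at 20.9 to 75.7 CPM in 6 LP libraries and 13.8 CPM in the other, but at 0.127 to 165 CPM in BM.

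The 12 genes of MHC class I presentation, which load peptides from the cytosol, were examined beside them. None was called for the genotype in either cell type. In BM 10 of the 12 had negative log2 fold changes, with a median of −0.30 against −0.10 over all genes tested. *H2-K1*, a class I heavy chain, had log2 fold changes of 0.12 ± 0.15 in LP and −0.55 ± 0.13 in BM (edgeR, adjusted p = 0.932 and 0.0767, the latter under a fold of 1.5), and the difference of 0.68 ± 0.16 was called (edgeR, adjusted p = 0.0952). It was also lower in experiment 2 than in experiment 1 of LP by 0.81 ± 0.15 (edgeR, adjusted p = 0.0815). In that comparison 0.977% of all genes tested (117) were called, and between 0 and 10 genes with 1 library left out. *Tap2*, of the peptide transporter, was higher in LP than in BM by 0.84 ± 0.26, and *Nlrc5*, the class I coactivator, was lower by 0.88 ± 0.30 (edgeR, adjusted p = 0.0646 and 0.0978). The highest median of this list was that of *B2m*, at 8123 RPKM in LP and 6260 RPKM in BM.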

How the data were processed

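RNA was sequenced from LP ILC2s (7 libraries) and BM ILC2p (8 libraries). The authors mapped reads to mm9 with TopHat (Bowtie2 stands in the submitters' processing notes) and counted them on UCSC RefSeq genes with rpkmforgenes over full transcripts, without regions shared by differently named genes. The authors deposited raw counts per gene, and RPKM normalized to transcript length and to the normalization reads in the file headers. Floors of 3 counts cover counting error only, and 205 entries join several genes.

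Groups came from the labels. The 4 BM libraries of experiment 1 carry other library numbers in their labels than in their files, and files were assigned as GEO records them. The members and lists were chosen with earlier results of these data known. Named are the 9 members, *Tgfbr2*, the called genes of 3 pathway lists (the gene with the highest median RPKM is also given) and the 5 genes most like the mean of the chains. A called gene of the list of regulators is not reported here. Other genes and the promoter motifs were chosen after their values were seen. The main test was the quasi-likelihood test of edgeR (4.0.16, under R 4.3.3) on counts kept by filterByExpr and scaled by TMM. Its terms were genotype and experiment within a cell type, cell type and genotype between cell types, and cell type by experiment with a genotype term per cell type for the difference of effects. Genes with a Benjamini-Hochberg adjusted p under 0.1 over all genes tested and a fold over 1.5 were called. Standard errors were derived from the log2 fold change and its F statistic. CPM used TMM factors over all 15 libraries. Other settings tried were limma (3.58.1) on log2(RPKM + 1) or log2(RPKM + 0.1), DESeq2 (1.42.0), upper quartile scaling, other filters and terms, a replicate block, subsets of libraries, and each library left out. The edgeR fits of the genotype in each cell type and of LP against BM were tried on simulated counts. Summaries and plots used pandas (2.3.3), numpy (2.4.6) and matplotlib (3.10.9) under Python 3.11.15. Positions are from GENCODE on NCBIM37, promoters from RefSeq on GRCm38.p6.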

Additional observations from a re-analysis of the deposited data

Results flagged for a closer look

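In 27 groups of 4 libraries, the gap between the highest or lowest library and its nearest neighbour was compared with the range of the group on the log2(CPM + 1) scale, by Dixon's limit. For normally spread values chance marks about 1 in 20 such groups. A group with 3 libraries at 0 counts and 1 above 0 is always marked, so that rate does not hold for genes near 0. *Ciita* stood out in BM Tgfbr2-/- replicate 2 of experiment 1, at 65.9 CPM, as did *Cd80* (11.6 CPM) and *Cd86* (18.4 CPM) in BM Tgfbr2-/- replicate 1 of experiment 2. The other cases rest on 1 or 2 counts. *Cd80* had 1 count in LP WT replicate 2 of experiment 2 (0.0696 CPM) and *Cd86* had 2 counts in BM WT replicate 2 of experiment 2 (0.0485 CPM), and the other 3 libraries of each group had 0.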

How the results depend on the processing

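Of the members' values under other settings, 406 fits without a library and 301 other fits kept direction and side of the threshold, 18 and 18 reversed, 11 and 17 became called and 9 and 3 lost a call. The causes were not tested. The lost calls include *Cd74* between the cell types, which had −0.68 with upper quartile scaling, −0.84 with at least 10 counts in every library and −0.88 in WT libraries alone (edgeR, adjusted p = 0.278, 0.135 and 0.745). In that comparison *H2-DMb1* missed the threshold in 3 of 9 other settings and 11 of 15 fits without a library, *H2-Aa* in 5 and 13, *H2-Ab1* in 6 and 14, *H2-DMa* in 7 and 13 and *H2-Eb1* in 9 and 15. Without BM Tgfbr2-/- replicate 2 of experiment 1 *Ciita* was at 5.23 (adjusted p = 0.055), and without BM Tgfbr2-/- replicate 1 of experiment 2 *Cd86* was at 5.64 (adjusted p = 0.0953).

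DESeq2 called 338 genes for the genotype in LP (0 in edgeR), 1229 in BM (321), 2069 between cell types (1304), 1347 and 397 between experiments in LP and BM (117 and 0) and 1502 for the interaction (127). Its calls were 676 higher and 553 lower for the genotype in BM (edgeR 241 and 80), 1228 and 841 between cell types (937 and 367), and 797 and 550 between LP experiments (34 and 83). With no filter the counts were 3 for the genotype in LP, 320 and 5 between experiments in LP and BM, and 259 for the interaction. With at least 10 counts in every library they were 199 in BM and 349 between cell types (163 higher, 186 lower). Upper quartile scaling gave 31 between LP experiments and 203 for the interaction (146 higher, 57 lower, against 60 and 67). limma gave 2147 between cell types and 255 between LP experiments on log2(RPKM + 0.1), and 382 and 360 for the interaction with a pseudocount of 1 and 0.1. BM experiment 1 alone gave 38 and experiment 2 alone 77. WT libraries alone gave 268 between cell types and 0 between LP experiments. With 1 library left out, counts ran from 0 to 0 for the genotype in LP, 179 to 319 in BM, 1036 to 1458 between cell types, 0 to 10 and 0 to 0 between experiments in LP and BM, and 14 to 407 for the interaction.

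Replicate numbers did not pair the libraries (correlation of replicate differences −0.045, −0.007 and −0.036), and with the replicate block 0 genes were called for the genotype in LP and 175 in BM, with no member among them.

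Reversed members, for the genotype in LP, were *H2-Eb1* (0.20 and 0.23) and *H2-Aa* (0.14 and 0.16) in limma at a pseudocount of 1 and 0.1, and *Cd74* without the experiment term (−0.0148). In BM experiment 1 alone *H2-DMa* was at −0.18 and *Cd74* at −0.22. Between cell types *Ciita* was at −2.14 in Tgfbr2-/- libraries alone and −0.50 without the genotype term, and *Cd86* at −0.87 without it. Between experiments, limma gave −0.20 and −0.24 for *H2-Eb1* in LP and 0.0774 and 0.0789 for *H2-Aa* in BM, and DESeq2 −0.0395 for *H2-Ab1* in BM. For the interaction *H2-DMa* was at 0.10 with upper quartile scaling and *Cd74* at 0.12 and 0.12 in limma. With 1 library left out, the genotype values in LP ran from −1.28 to 1.97 for *Cd86*, −0.59 to 0.78 for *H2-Eb1*, −0.84 to 0.61 for *H2-Aa* and −0.20 to 0.61 for *Cd74*. Those between LP experiments ran from −0.32 to 1.35 for *H2-Ab1*, −1.20 to 0.80 for *H2-Eb1*, −0.68 to 1.27 for *H2-Aa* and −0.51 to 0.66 for *Cd74*. Those between BM experiments ran from −0.26 to 0.50 for *H2-Ab1* and −0.55 to 0.54 for *H2-Aa*. The interaction ran from −8.14 to 3.22 for *Ciita*, −0.73 to 0.25 for *H2-DMa* and −0.80 to 0.20 for *Cd74*. A floor of 3 counts is between 0.0727 and 0.311 CPM for counting error alone, which limits *Ciita* in BM, *Cd80* and *Cd86*.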
